A study of Mus musculus with 6 samples.

Results

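The ErbB receptors and the growth factors that bind them were followed through hearts of mice given doxorubicin (Dox), the ginsenoside Rh2, or both. The set was 10 genes of 45777 in the deposited table, taken by gene symbol: the receptors Egfr, Erbb2, Erbb3 and Erbb4, the neuregulins Nrg1, Nrg2 and Nrg4, and the EGF-like ligands Hbegf, Areg and Btc. Testing took genes that averaged 10 counts or more, which were 18328 in all. Of the 10 members 9 did, and Areg did not.

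The hearts came from female BALB/c nude mice (CAnN.Cg-Foxn1nu/Crl), which lack a thymus and whose labelled age, 6 weeks, is that at entry, before the treatment. Every mouse, Control included, carried a tumour of MDA-MB-231, a human breast cancer line. Each condition had 1 RNA-seq library, pooled from the hearts of 5 mice, so animals could not be told apart and no condition had a second library. Control mice had vehicle, Dox mice had 2 mg/kg per dose to a cumulative 22 mg/kg, and Rh2 mice had 20 or 30 mg/kg, all over 3 weeks. The other 2 libraries had Dox with Rh2 at either dose and are named Rh2-20 mg/kg + Dox and, for the higher dose, Rh2-30 mg/kg + Dox.

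ErbB receptors are membrane tyrosine kinases that pair when a ligand binds. The products of Nrg1 and Nrg2 bind Erbb3 and Erbb4, that of Nrg4 binds Erbb4, EGF-like ligands bind Egfr, and some, such as the products of Hbegf and Btc, also bind Erbb4. Erbb2 binds no ligand and works as the shared partner, while Erbb3 has little kinase activity and signals through its partner. In the heart, neuregulin is released mainly from endothelium, and cardiomyocytes carry Erbb2 and Erbb4. Antibodies against ERBB2 are known to add to the cardiac harm of anthracyclines such as Dox, which is why the family is of interest in this tissue.

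Libraries held 86164411 to 90621002 counts. Heart muscle markers were abundant in every library: 6 cardiomyocyte genes, led by Myh6, summed to 18910 to 25860 CPM (counts scaled to an equal library size by TMM). The Rh2-30 mg/kg library stood apart from the other 5. Its 5 atrial genes, led by Nppa, summed to 1668 CPM against 45.7 to 486 elsewhere, with 4 of 5 at their highest count there, and the 4 brown fat genes, led by Ucp1, to 99.2 CPM against 5.33 to 10.5. For several of the tests it takes part in, values without it are given as well.

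The promoters of 2 members are shown, of Nrg4 because it stood highest in that library and of Erbb2 because it varied little. They are the 250 bases before the start site of 1 transcript per gene in RefSeq's annotation of build GRCm38.p6 (mm10), read in the gene's own direction. Of the 10 members, 6 had such a sequence. The Nrg4 window lies at chr9:55283626-55283875 on the minus strand, where another start site lies farther upstream, so that 29 of the 250 bases fall inside the span RefSeq gives the gene. The Erbb2 window lies at chr11:98412234-98412483 on the plus strand, outside the RefSeq span. The window of Erbb4 lay wholly inside the span of its gene and is not shown. Capitals mark a match, on either strand, to the TATA box (TATAAA), the CCAAT box (CCAAT), the GC box (GGGCGG) or the E-box (CACGTG).
Nrg4: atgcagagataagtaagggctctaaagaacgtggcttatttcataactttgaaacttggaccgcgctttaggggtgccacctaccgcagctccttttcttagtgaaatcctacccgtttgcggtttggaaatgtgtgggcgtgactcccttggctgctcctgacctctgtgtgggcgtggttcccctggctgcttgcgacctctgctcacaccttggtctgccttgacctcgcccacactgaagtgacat
Erbb2: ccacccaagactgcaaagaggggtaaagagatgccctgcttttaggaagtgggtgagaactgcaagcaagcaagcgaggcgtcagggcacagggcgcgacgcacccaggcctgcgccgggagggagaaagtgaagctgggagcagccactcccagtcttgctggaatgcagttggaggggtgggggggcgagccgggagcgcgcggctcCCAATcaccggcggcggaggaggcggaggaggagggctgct
The only match in either window was 1 CCAAT in Erbb2, whose first base lies 41 bases before the start site (position -41). Of 32851 mouse promoter windows of this length, 33.8% held CCAAT, 32.7% held GGGCGG, 12.4% held TATAAA and 6.02% held CACGTG. The Erbb2 window was 66.0% G or C, against 53.2% in Nrg4 and a median of 52.4% over all windows.

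Levels between genes were compared per transcript length, as the authors' FPKM. Erbb4 had the highest mean, 5.31 FPKM ± 1.62 (SD over the 6 libraries), followed by Erbb2 (4.06 ± 0.392), Egfr (3.19 ± 0.606) and Erbb3 (2.58 ± 0.196). Each neighbouring pair of receptors overlapped in range over libraries, although Erbb2 was above Egfr within each library. Every Erbb4 and Erbb2 value (at least 3.67 and 3.57 FPKM) lay above every Erbb3 value (at most 2.79 FPKM). The ligands were lower. Hbegf, which encodes heparin-binding EGF-like growth factor, had 1.65 FPKM ± 0.203, and Nrg1, the main cardiac neuregulin, 1.64 ± 0.433. These 2 ligands overlapped in range with each other. The highest Hbegf value, 2.03 FPKM, lay under the lowest Erbb3 value, 2.29 FPKM, but above Egfr in Control, at 2.00 FPKM.

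Nrg4, a neuregulin best known from brown fat, had a mean of 1.03 FPKM ± 1.13, where the spread came from 1 library at 3.33 FPKM. In the other 5 libraries Nrg4 had 0.504 to 0.608 FPKM, under every Nrg1 value (0.894 FPKM or more). Betacellulin (Btc) had 0.186 FPKM ± 0.0481, with every value under every Nrg4 value. Nrg2 had 0.0661 FPKM ± 0.115 and overlapped with Btc through the Rh2-30 mg/kg library alone, at 0.300 FPKM. Amphiregulin (Areg) was near the limit of detection, with 4 counts in the Control library and 0 in the other 5, where a count of 0 allows up to 3 counts.

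**Figure D1:**
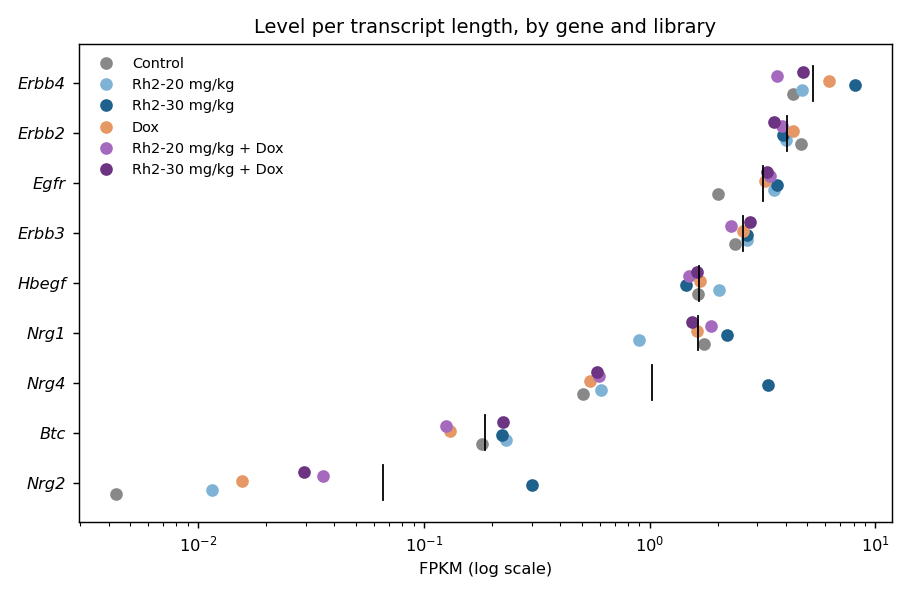
Each point is the FPKM of 1 library (log axis), coloured by condition, and the black bar is the mean over the 6 libraries. The 4 receptors had means of 2.58 to 5.31 FPKM, above the ligands among the members. Areg, at 0 in 5 libraries, is left out.

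Erbb4, the neuregulin receptor with its own active kinase, had 4813 counts in Control and 4258 and 8371 with Rh2 alone at 20 and 30 mg/kg. With Dox the counts were 4915 without Rh2 and 4166 and 4231 at those Rh2 doses. In CPM the order was Control 57.8, then 47.3 and 88.3 with Rh2 alone, 58.5 with Dox alone, and 45.5 and 48.7 with both. The Rh2-30 mg/kg library was alone at the top, while the Control and Dox libraries were almost level. Against Control its Erbb4 ratio was 1.53-fold (log2 0.61, 95% counting interval 0.56 to 0.66), and the wider interval that adds the spread between libraries ran from -0.07 to 1.29. With Dox at the same Rh2 dose the level was 0.552-fold that of the Rh2-30 mg/kg library (log2 -0.86, counting interval -0.91 to -0.81), and there the wider interval, -1.54 to -0.18, left out 0.

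Over the 3 libraries with Dox against the 3 without, Erbb4 differed by -0.34 on the log2 scale (SE 0.229, adjusted p = 0.666 from edgeR's quasi-likelihood test). Without the Rh2-30 mg/kg library the difference was -0.03. For the 4 libraries with Rh2 against the 2 without, with Dox in the model, the log2 difference was -0.05 (adjusted p = 0.967 from edgeR), and without the same library -0.29 (unadjusted p = 0.0169, adjusted p = 0.615 from edgeR). Neither comparison passed with or without that library.

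Erbb2, the ligandless partner of the other receptors, was the only tested member whose Rh2 and non-Rh2 libraries did not overlap. It had 2632 counts in Control and 2411 in Dox, against 2308 and 2260 with Rh2 alone at 20 and 30 mg/kg and 2270 and 2102 with Dox at those doses. In CPM, the 2 libraries without Rh2 stood at 31.6 and 28.7 and the 4 with Rh2 at 23.8 to 25.6. The log2 difference was -0.29 (SE 0.081), with an unadjusted p of 0.0126 and an adjusted p of 0.567 from edgeR's quasi-likelihood test. So 1 of 9 members did not overlap, where 19.0% of all tested genes (3474 of 18328) did not. With any 1 library left out, the difference stayed at -0.35 to -0.23, with adjusted p-values of at least 0.608 from edgeR.

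Between Dox and no Dox, Erbb2 differed by -0.06 on the log2 scale (SE 0.132, adjusted p = 0.911 from edgeR). Erbb3, which pairs with Erbb2 to drive the PI3K pathway, had the smallest spread of the tested members (SD of log2 CPM 0.122), with 1614 counts in Control and 1730 without Rh2 but with Dox. At 20 mg/kg Rh2 there were 1878 counts alone and 1616 with Dox, and at 30 mg/kg Rh2 1874 alone and 1975 with Dox. Its CPM spanned 17.6 to 22.7, and its log2 differences were 0.02 for both Dox (adjusted p = 0.968) and Rh2 (adjusted p = 0.972 from edgeR).

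Egfr, the receptor of EGF and most EGF-like ligands, had 1335 counts in Control and 2075 and 2302 with Rh2 alone at 20 and 30 mg/kg. With Dox the counts were 2129 without Rh2 and 2130 and 1884 at those Rh2 doses. Control was the low library at 16.0 CPM, and the 5 treated libraries lay close together at 21.7 to 25.3 CPM. Against Control the ratio was 1.58-fold for Dox. It was 1.44-fold and 1.52-fold for Rh2 alone at 20 and 30 mg/kg, and 1.45-fold and 1.35-fold with Dox at the same doses. All 5 share the 1 Control library, and each wider interval included 0, the nearest being -0.02 to 1.34 on the log2 scale for Dox.

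The Dox by Rh2 interaction asks whether Dox and no Dox differed alike with and without Rh2. For Egfr the term was -0.74 (SE 0.188, unadjusted p = 0.0124, adjusted p = 0.988 from edgeR). It did not pass, and no gene did: 0 of 18328 (0%) passed in edgeR, with 497 at an unadjusted p under 0.05, and 38 passed in DESeq2. In the other 2 tests the Egfr log2 difference was 0.15 for Dox (adjusted p = 0.811) and 0.18 for Rh2 (adjusted p = 0.768 from edgeR). Both rested on the low Control library, and without it they were -0.015 and -0.17. In the interaction, the side without Rh2 is the Dox library against that same Control library, with 1 library each. Without the Rh2-30 mg/kg library, an alternative added after seeing the data, the Egfr interaction was -0.70 and that of Nrg1 1.17. That fit holds 1 library with Rh2 and no Dox, so effect sizes alone are given.

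**Figure D2:**
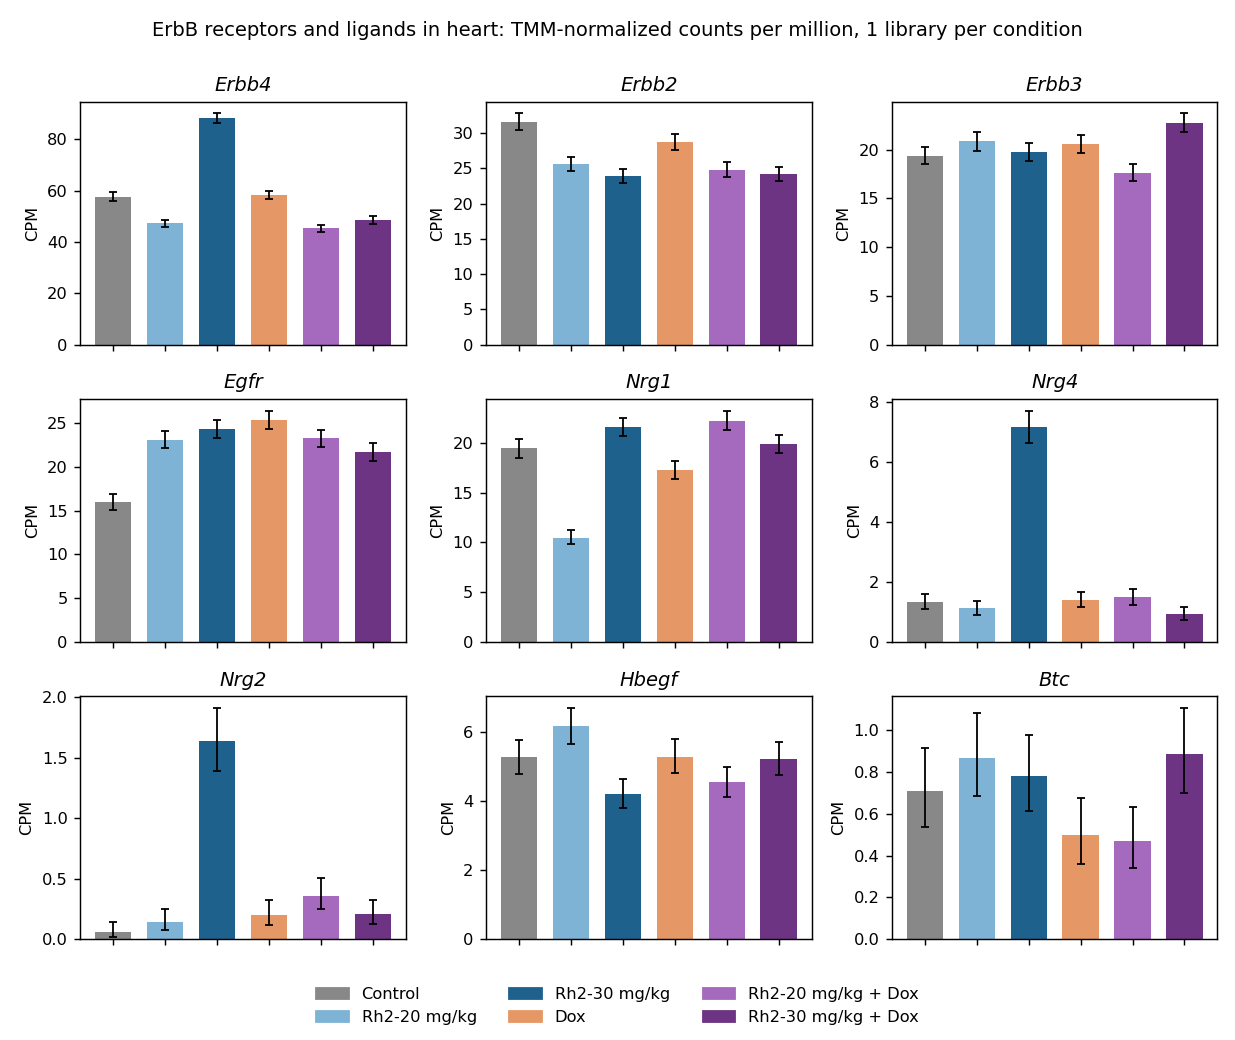
Bars give TMM-normalized CPM on an axis from 0 for the 9 tested members, 1 bar per library in the order of the legend, with 95% Poisson intervals that cover counting error alone. Nrg4 and Nrg2 are highest in Rh2-30 mg/kg, Egfr is lowest in Control, and Nrg1 is lowest in Rh2-20 mg/kg.

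Nrg4 had 110 counts in Control and 118 without Rh2 but with Dox. At 20 mg/kg Rh2 there were 101 counts alone and 136 with Dox, and at 30 mg/kg Rh2 677 alone and 81 with Dox. No library but Rh2-30 mg/kg had more than 136 counts. Against Control that library was 5.39-fold higher (log2 2.43, counting interval 2.14 to 2.74, wider interval 1.70 to 3.16). The library with the same Rh2 dose and Dox was lower, with a log2 ratio of -2.93 to it (wider interval -3.68 to -2.18).

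Nrg2, a neuregulin of the nervous system and endothelium, had 5 counts in Control and 13 and 155 with Rh2 alone at 20 and 30 mg/kg. With Dox the counts were 17 without Rh2 and 33 and 18 at those Rh2 doses. It was highest in the same library as Nrg4 and lowest in Control. The Control count of 5 has a 95% Poisson interval of 1.62 to 11.7, so ratios to it are loose. The Rh2-30 mg/kg ratio was 24.98-fold (log2 4.64, counting interval 3.51 to 6.41), and the 4 other ratios to Control ran from 2.28-fold to 5.57-fold. For Rh2-20 mg/kg the counting interval included 0 (-0.31 to 3.11 on the log2 scale).

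The Dox comparison of these 2 neuregulins turned on that library. Nrg4 differed by -1.33 on the log2 scale (SE 0.715, adjusted p = 0.58) and Nrg2 by -1.25 (SE 1.10, adjusted p = 0.748 from edgeR's quasi-likelihood test), and neither passed. Without the Rh2-30 mg/kg library the values were 0.07 for Nrg4 and 1.32 for Nrg2, so both changed sign. For Rh2, Nrg4 went from 0.63 to -0.22 and Nrg2 from 1.83 to 0.77 without it. Both libraries without Rh2 moved these values as well. Without Control they were -0.22 and 0.49, and without the Dox library 1.65 for Nrg4 and 3.86 for Nrg2, with adjusted p-values of at least 0.872 from edgeR.

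Markers of several other tissues moved with Nrg4, Nrg2 and Erbb4 in that library. All 4 brown fat genes were highest there: Ucp1 had 6442 counts against 0 to 12 elsewhere, and Elovl3 had 453 against 0 to 3. White fat genes summed to 58.0 CPM against 0.115 to 12.2, with 3 of 4 highest there (Adipoq 3716 counts against 8 to 650) and Lep, which encodes leptin, at 0. Of the 5 autonomic neuron genes 4 were highest there. They summed to 5.12 CPM against 0.828 to 1.04, with Th at 25 counts there and 0 in each other library, and Dbh at 59 counts against 22 to 67.

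Epithelial genes summed to 10.9 CPM against 0.368 to 1.70, with 4 of 6 highest there, Scgb1a1 in the lead, with Sftpc at 0 in every library. Sums of other lists were also highest there by less: 1511 CPM against 834 to 1241 for fibroblasts, 350 against 174 to 319 for macrophages and 33.6 against 11.4 to 30.2 for mast cells. The same held for mesothelium, at 42.7 CPM against 21.9 to 33.7, for lymphocytes, at 5.27 against 2.63 to 4.87, and for skeletal muscle, at 2.84 against 1.51 to 2.76. Endothelial genes summed to 1619 CPM, within the 1588 to 1897 of the others, and cardiomyocyte genes were at their lowest there (18910 CPM). The part of these tissues in the values of Nrg4, Nrg2 and Erbb4 was not tested. In bulk RNA, fewer cells of a type and less RNA per cell cannot be told apart.

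**Figure D3:**
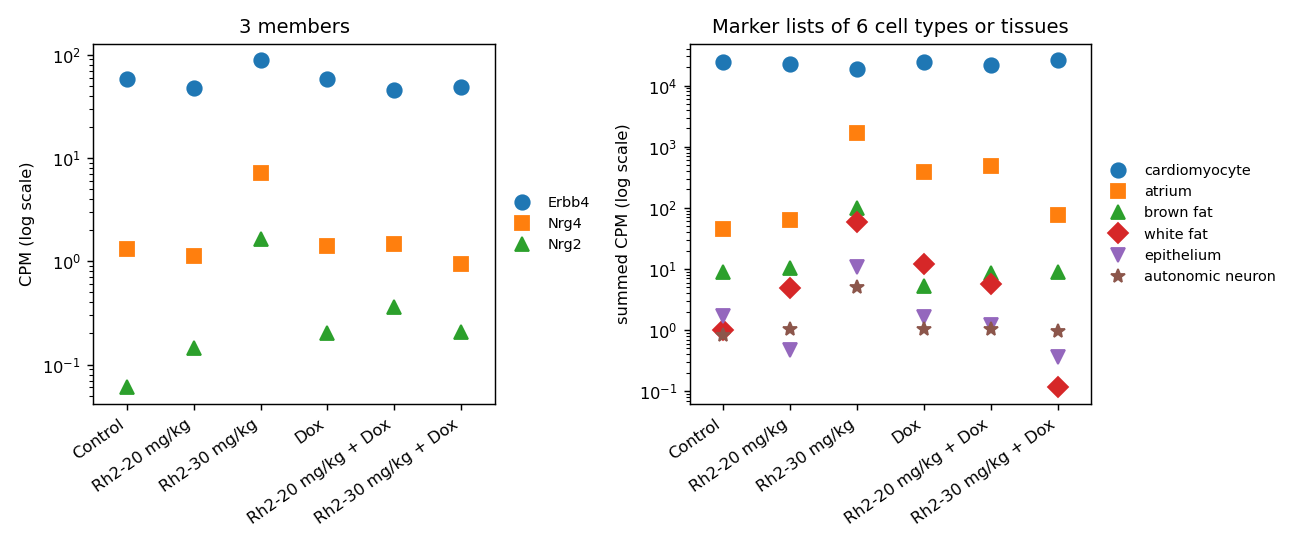
The left panel gives the CPM of Erbb4, Nrg4 and Nrg2 and the right panel the summed CPM of 6 marker lists, both on log axes, by library. Nrg4 at 7.14 CPM and the atrial, brown fat, white fat, epithelial and autonomic neuron sums all stand highest in Rh2-30 mg/kg, where the cardiomyocyte sum is lowest.

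The genes whose pattern over the 6 libraries was most like that of Nrg4 were Igkc, Uchl1 and Mbp, which encode an immunoglobulin light chain, a neuronal deubiquitinase and a myelin protein. The measure was the root mean square difference of centred log2 CPM, at 0.206, 0.223 and 0.261. Igkc had 928 counts in Rh2-30 mg/kg and 112 to 167 elsewhere, and Mbp had 940 there and 167 to 289 elsewhere. The likeness rested on that library: over the other 5, Uchl1 ranked 124 of 13960 genes, Mbp 309 and Igkc 2638.

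Nrg1 had a different low library. It had 1620 counts in Control and 1454 without Rh2 but with Dox. At 20 mg/kg Rh2 there were 945 counts alone and 2036 with Dox, and at 30 mg/kg Rh2 2044 alone and 1726 with Dox. The Rh2-20 mg/kg library was the only one under 17.3 CPM, at 10.5 CPM, and the other 5 reached at most 22.2. Against Control it was 0.540-fold (log2 -0.89, counting interval -1.01 to -0.77, wider interval -1.57 to -0.21).

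With Dox at the same Rh2 dose, Nrg1 was 2.12-fold higher than in the Rh2-20 mg/kg library (log2 1.08, counting interval 0.97 to 1.20). In the tests over all libraries its log2 difference was 0.21 for Dox (adjusted p = 0.836) and -0.01 for Rh2 (adjusted p = 0.997 from edgeR). The 3 genes with the most similar pattern were Slfn1, Mlph and Gria3, at 0.092, 0.112 and 0.157 by the same measure. Slfn1 had 78 counts in Rh2-20 mg/kg and 130 to 174 elsewhere. Of the 13961 genes that averaged 100 counts or more, 14.3% spanned at least 1 on the log2 CPM scale, as Nrg1 and Nrg4 did.

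Hbegf had 439 counts in Control and 556 and 399 with Rh2 alone at 20 and 30 mg/kg. With Dox the counts were 444 without Rh2 and 417 and 454 at those Rh2 doses. The Control, Dox and Rh2-30 mg/kg + Dox libraries were nearly level at 5.22 to 5.28 CPM. Its log2 difference was -0.06 for Dox (adjusted p = 0.94) and -0.07 for Rh2 (adjusted p = 0.934 from edgeR). Without the Rh2-30 mg/kg library the Rh2 value was 0.043.

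Btc had 59 counts in Control and 42 without Rh2 but with Dox. At 20 mg/kg Rh2 there were 78 counts alone and 43 with Dox, and at 30 mg/kg Rh2 74 alone and 77 with Dox. It was low in 2 of the 3 libraries with Dox and high in the third. The Dox log2 difference was -0.34 (SE 0.332, adjusted p = 0.775 from edgeR). Between single libraries, Btc with 20 mg/kg Rh2 and Dox was 0.545-fold that with Rh2 alone (log2 -0.88, wider interval -1.74 to -0.02). With 30 mg/kg Rh2 and Dox it was 1.76-fold that in the Dox library (log2 0.82, counting interval 0.27 to 1.41, wider interval -0.05 to 1.68).

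In all, 0 of 9 tested members passed in any of the 3 tests, beside 5 of 18328 genes (0.0273%) for Dox and 0 (0%) for Rh2. Those gene counts were 425 and 242 in DESeq2, where again 0 members passed. At an unadjusted p under 0.05, edgeR gave 0 of 9 members for Dox, against 10.1% of all tested genes, and 1 of 9 (Erbb2) for Rh2, against 8.74%. For Dox, the range of every member with Dox overlapped its range without, while 17.0% of all tested genes did not overlap. As libraries of different Rh2 dose stood in for replicates, these p-values measure only the spread between such pools.

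Library by library, a member counted as different when its ratio was at least 2-fold, with no test. Against Control that held for 1 of 9 members in Rh2-20 mg/kg (all tested genes 6.15%), 2 in Rh2-30 mg/kg (10.1%), 1 in Dox (9.02%), 1 where Dox met 20 mg/kg Rh2 (8.75%) and 1 where Dox met 30 mg/kg Rh2 (10.9%). Nrg2 was that member each time, joined by Nrg4 in Rh2-30 mg/kg. Against Dox alone, 0 members reached 2-fold when Rh2-20 mg/kg (6.51%) or Rh2-30 mg/kg (10.1%) was added.

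When Dox was added to Rh2, Nrg1 and Nrg2 were higher in Rh2-20 mg/kg + Dox than in Rh2-20 mg/kg (2 of 9 members, 6.96% of all genes). Nrg4 and Nrg2 were lower in Rh2-30 mg/kg + Dox than in Rh2-30 mg/kg (2 of 9, 14.5%). Over all 81 such ratios of tested members, 57 counting intervals lay wholly to one side of 0, and 12 of the intervals with the spread between libraries added did.

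**Figure D4:**
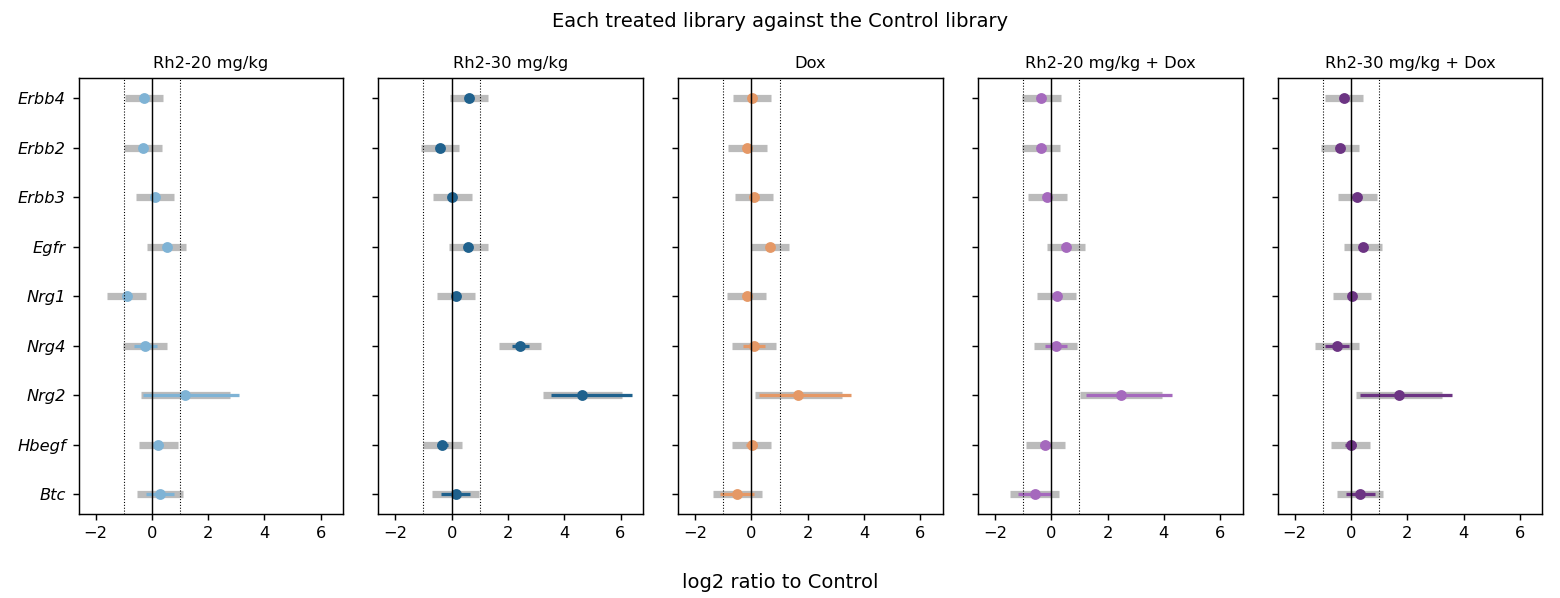
Points are log2 ratios to the Control library for the 9 tested members in each treated library, thin bars the 95% counting intervals and grey bars the intervals with the spread between libraries added, and dotted lines mark 2-fold. Nrg2 (log2 4.64) and Nrg4 (2.43) in Rh2-30 mg/kg lie farthest from 0.

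The unit mattered for Erbb4, Nrg4 and Nrg2. In the Dox library the Erbb4 counts were 1.01-fold those of Control after TMM scaling, but its FPKM was 1.44-fold, 6.22 against 4.32. For Erbb4 in Rh2-20 mg/kg the 2 units differed in direction, 0.818-fold by counts and 1.10-fold by FPKM. Nrg4 was 0.706-fold by counts and 1.16-fold by FPKM in Rh2-30 mg/kg + Dox. The widest gap was in Nrg2. Against Control its level in Rh2-30 mg/kg was 27.2-fold by CPM, with no prior count, and 69.8-fold by FPKM, and in Rh2-30 mg/kg + Dox 3.45-fold and 6.86-fold. What in the length scaling differed between libraries was not tested.

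Of the 5 other ErbB ligands, 2 were tested. Egf had 1801 counts in Control and 1770 and 2223 with Rh2 alone at 20 and 30 mg/kg. With Dox the counts were 1371 without Rh2 and 1667 and 1766 at those Rh2 doses, so Dox alone was lowest. Its Dox log2 difference was -0.24 (SE 0.117, adjusted p = 0.555 from edgeR). Tgfa had 9 to 32 counts, Ereg 0 to 19 and Epgn 0 to 13. Nrg3, a neuregulin of brain, had 18 counts in Rh2-30 mg/kg and 0 in the other 5.

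Around the receptors, 0 genes of the pathway lists passed in any of the 3 tests. The ligand release list holds sheddases, which cut ligand precursors free, and related proteins, an inhibitor of shedding among them. Of its 14 genes 13 were tested. For Dox 3 had a lower level at an unadjusted p under 0.05 and 0 a higher one, against 10.1% of all tested genes in either direction, with a median log2 difference of -0.07 beside -0.02 over all genes. Without the Rh2-30 mg/kg library 2 were lower and 1 higher, against 9.08%. The 3 were Adam12, at 243 to 509 counts under Dox and 715 to 1258 otherwise (log2 -1.30, SE 0.317, adjusted p = 0.303), Adam19 (-0.37, adjusted p = 0.459) and Bace1 (-0.41, adjusted p = 0.43 from edgeR). The proteases of Adam19 and Bace1 are both known to cut neuregulin 1.

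The receptor brake list holds proteins that inhibit ErbB receptors, govern their degradation or damp the signal below them. Of its 19 genes 18 were tested. For Rh2, 4 were higher at an unadjusted p under 0.05 and 0 lower, against 8.74% of all tested genes in either direction, with a median log2 difference of 0.11 beside 0.01 over all genes. Errfi1, whose product Mig6 binds and blocks the ErbB kinase domain, had 2919 counts in Control and 2837 in Dox, against 5830 and 7811 with Rh2 alone at 20 and 30 mg/kg and 4431 and 4189 with Dox at those doses. All 4 libraries with Rh2 were above both without it, at 48.2 to 82.4 CPM against 33.8 and 35.04, where 19.0% of all tested genes did not overlap. Its Rh2 log2 difference was 0.79 (SE 0.166, unadjusted p = 0.00367, adjusted p = 0.567 from edgeR), so it did not pass. The other 3 were Spry4, Socs4 and Socs5, at 0.31, 0.44 and 0.22, of which Socs4 and Socs5 are named after their values were seen. With the Rh2-30 mg/kg library left out, Errfi1 was at 0.68 (unadjusted p = 0.0016, adjusted p = 0.615 from edgeR). Again 4 brakes were higher at an unadjusted p under 0.05, against 7.91% of all tested genes in either direction. Spry4 was not among them (unadjusted p = 0.0677 from edgeR's quasi-likelihood test). For Dox, 1 brake was lower and 0 higher, against 10.1%. That was Spry4, at -0.45 (SE 0.150, unadjusted p = 0.0203, adjusted p = 0.403 from edgeR). Without the same library 0 were lower, against 9.08% of all tested genes.

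ERK response genes are switched on when receptor signals reach the ERK kinases, and 13 of 14 were tested. For Dox, 6 were lower at an unadjusted p under 0.05 and 1 was higher, against 10.1% of all tested genes in either direction, with a median log2 difference of -0.26 beside -0.02 over all genes, and 0 passed after adjustment. Egr1 ranged from 840 to 1101 counts under Dox and from 1348 to 2781 otherwise (log2 -1.08, SE 0.265, adjusted p = 0.304). Fos, another early transcription factor, differed by -0.84 (adjusted p = 0.314), and Ccnd1, the gene of cyclin D1, by -0.73 (SE 0.091, adjusted p = 0.083 from edgeR). Ccnd1 ranged from 1042 to 1237 counts under Dox and from 1919 to 2028 otherwise, the narrowest spread of the 3. The gene that was higher, Ier3, differed by 0.63 (SE 0.159, adjusted p = 0.314 from edgeR) and is named after its value was seen. When Rh2-30 mg/kg was left out, 4 were lower and 2 higher, against 9.08% of all tested genes, with a median of -0.37. Egr1 was then at -0.92, Fos at -0.81 and Ccnd1 at -0.74 (adjusted p = 0.186 from edgeR). Marker lists of other cells had median log2 differences with Dox of -0.65 for mast cells, -0.50 for macrophages, -0.23 for fibroblasts and 0.19 for cardiomyocytes. In single pairs, the fibroblast median was 0.16 for Dox against Control and 0.23 at 20 mg/kg Rh2. At 30 mg/kg Rh2, where the Rh2-30 mg/kg library takes part, it was -1.27. For macrophages these values were -0.16, -0.105 and -1.40, and for mast cells -1.07, 0.09 and -0.94. The part of these cells in the ERK list was not tested. ERK response genes answer to many signals beside ErbB receptors.

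In the signalling chain between receptor and nucleus, 36 of 36 genes were tested. For Dox, 3 were higher and 1 lower at an unadjusted p under 0.05, against 10.1% of all tested genes in either direction, with a median log2 difference of -0.005. These counts were 3 and 0 without the Rh2-30 mg/kg library, against 9.08% of all tested genes. Pik3r1, a PI3K regulatory subunit, ranged from 16450 to 24671 counts under Dox and from 10489 to 15322 otherwise (log2 0.66, SE 0.188, adjusted p = 0.344 from edgeR). Foxo3, a transcription factor held back by AKT, differed by 0.43 and Ptpn11, the phosphatase SHP2, by 0.34. Of the 8 co-receptors and scaffolds 0 had an unadjusted p under 0.05 for Dox or Rh2, and the widest Dox differences were in Cd9 (0.46), Muc4 (-0.33) and Hsp90aa1 (-0.23). Without the Rh2-30 mg/kg library Hsp90aa1 was at 0.009, and 1 of the 8, Muc4, was higher with Rh2 (log2 0.70, unadjusted p = 0.0122, adjusted p = 0.615 from edgeR). Of all tested genes, 7.91% had an unadjusted p under 0.05 in that Rh2 comparison.

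**Figure D5:**
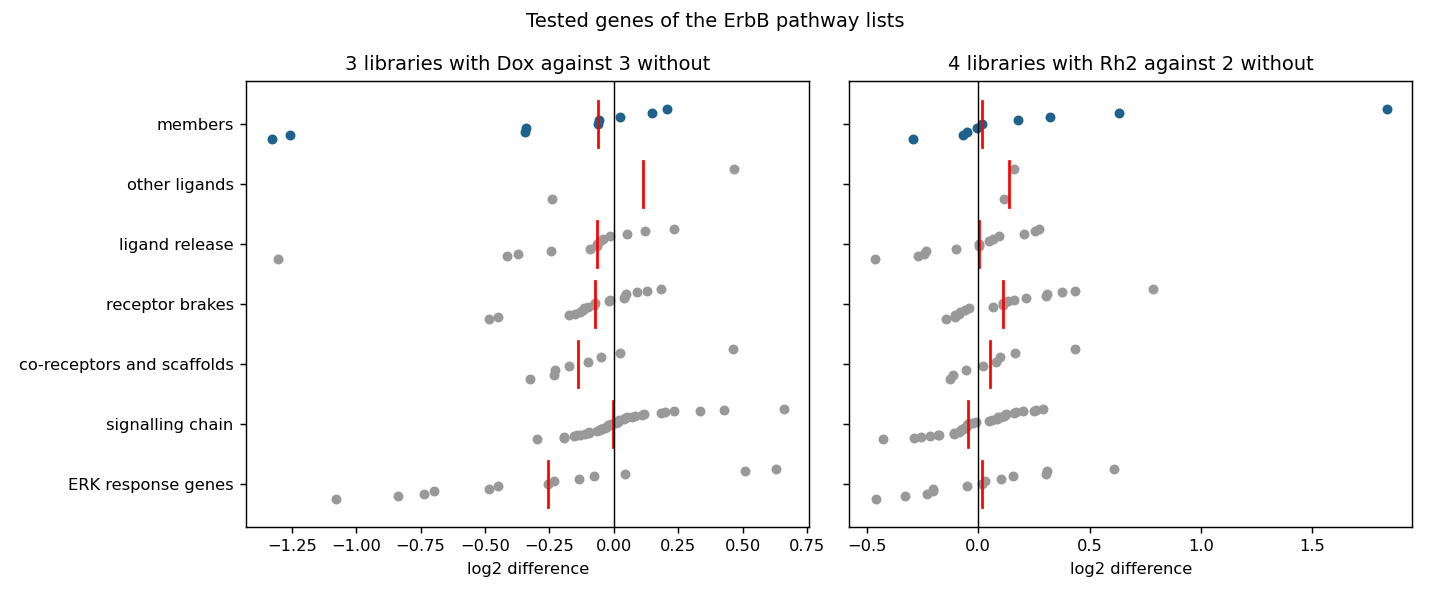
Each point is the log2 difference of 1 tested gene, by list, for Dox against no Dox (left) and Rh2 against no Rh2 (right), with the list's median in red and the members in blue. The ERK response list has the lowest Dox median of the larger lists (-0.26), and 0 genes shown passed an adjusted p of 0.05.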

How the data were processed

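RNA of 6 pooled heart libraries was captured with a SureSelect kit and sequenced on a HiSeq. Per the labels, the authors used bcl2fastq 2.20.0, Trimmomatic, HISAT2 2.1.0 on mm10 and StringTie 2.1.3b with the UCSC table browser annotation. The deposited read count values are whole numbers per gene without normalization. The deposited FPKM values are scaled to transcript length and library by StringTie. Samples were grouped by their labels. The 10 members, the gene lists and the tests were chosen with earlier results of these data known.

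Counts were fitted in R 4.3.3 with edgeR 4.0.16 (TMM, quasi-likelihood test, two-sided, Benjamini-Hochberg adjustment over the 18328 genes averaging 10 counts or more). The tests were 3 libraries with Dox against 3 without, 4 with Rh2 against 2 without with Dox in the model, and their interaction. DESeq2 1.42.0 and limma 3.58.1 on log2(FPKM + 1) were alternatives, and the steps were tested on simulated data. Ratios of single libraries used a prior count of 0.5, exact conditional binomial 95% intervals, and wider intervals with edgeR's robust common dispersion of the 6 libraries as 1 group (0.0285). Intervals cover counting error alone unless said otherwise.

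Genes beyond the members were named by rule: the 5 other ligands, the 3 largest Dox differences of each list among genes averaging 100 counts or more, the leading gene of a marker list, and the 3 genes most alike in pattern to a member averaging 100 counts or more with a log2 CPM span of at least 1. Other marker genes were named after their values were seen. TPM values were deposited too and were not used. Python 3.11.15 and matplotlib 3.10.9 were used for the figures. The values of 1 marker list are not reported here.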

Additional observations from a re-analysis of the deposited data

Results flagged for a closer look

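Among the 4 libraries given Rh2, 3 of the 9 tested members had 1 library far from the other 3, by Dixon's ratio of the gap to the range above its 95% critical value for 4 samples. Each time it was the Rh2-30 mg/kg library, and it was high. Erbb4 stood at 88.3 CPM against 45.5 to 48.7 (ratio 0.925), Nrg4 at 7.14 CPM against 0.932 to 1.48 (ratio 0.911), and Nrg2 at 1.64 CPM against 0.144 to 0.360 (ratio 0.855). Of all 18328 tested genes, 6.79% were past that value and 2.66% with the Rh2-30 mg/kg library high. Chance alone marks about 1 in 20 such groups, and the 4 libraries differ in dose and in Dox. The same library holds the highest sums of atrial, brown fat, white fat, epithelial and autonomic neuron markers, and their part in these values was not tested.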

How the results depend on the processing

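Each condition rests on 1 pool of hearts, so no single-library ratio has a replicate check. No member passed an adjusted p of 0.05 under any alternative run. For Dox, 425 genes passed in DESeq2's Wald test, 0 in limma on log2(FPKM + 1) (1651 at an unadjusted p under 0.05) and 0 in edgeR with Rh2 dose as a replicate block (1598 unadjusted), where Nrg2 was 0.038 in place of -1.25. Leaving out 1 library gave 0 to 14 genes, the 14 without Rh2-30 mg/kg + Dox. DESeq2's Wald test passed 242 genes for Rh2 and 38 for the interaction. In limma the Erbb3 Dox difference was -0.02 and the Btc interaction -0.001, both of the other sign.

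Leaving out 1 library changed the sign of some members in edgeR. For Dox the log2 differences ran from -0.14 to 0.065 for Erbb2, -0.066 to 0.115 for Erbb3, -0.015 to 0.271 for Egfr, -0.041 to 0.417 for Nrg1, -1.79 to 1.32 for Nrg2, -1.72 to 0.071 for Nrg4 and -0.178 to 0.092 for Hbegf. For Rh2 they ran from -0.058 to 0.10 for Erbb3, -0.31 to 0.23 for Erbb4, -0.17 to 0.56 for Egfr, -0.28 to 0.28 for Nrg1, -0.22 to 1.65 for Nrg4 and -0.209 to 0.043 for Hbegf. Among these turns, Egfr turned without the Control library in both, and Nrg4 without Rh2-30 mg/kg in both and without Control for Rh2. Nrg1 turned without Rh2-20 mg/kg in both and without Control for Rh2. Hbegf turned without Rh2-20 mg/kg for Dox and without Rh2-30 mg/kg for Rh2. Erbb2 turned without Control for Dox, and Erbb4 without the Dox library for Rh2. The cause was not tested. In the interaction without Rh2-30 mg/kg, added after seeing the data, Nrg4 was at 0.012 in place of -1.86. For the genes named by rule from the pathway lists, the only library left out was Rh2-30 mg/kg. Hsp90aa1 then turned, to 0.009 for Dox, and no other of them did for Dox or Rh2.

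The number of genes at least 2-fold apart followed the filter on low counts. With no filter and with a mean of at least 100 counts, it was 4587 and 161 for Rh2-20 mg/kg against Control, 5843 and 573 for Rh2-30 mg/kg, 5172 and 466 for Dox, 5222 and 463 for Rh2-20 mg/kg + Dox, and 5563 and 727 for Rh2-30 mg/kg + Dox. Against Dox it was 4925 and 207 for Rh2-20 mg/kg + Dox and 5553 and 642 for Rh2-30 mg/kg + Dox. Against the same Rh2 dose it was 4951 and 342 at 20 mg/kg and 6906 and 1156 at 30 mg/kg. Of 86 members' ratios, 40 moved beyond their interval with FPKM + 1 and 35 with FPKM + 0.1. A dispersion without robust estimation (0.0865), added after seeing the data, left 5 of 81 wider intervals to one side of 0 in place of 12. Nrg4 (1.22 to 3.64) and Nrg2 (2.94 to 6.34) in Rh2-30 mg/kg against Control were among the 5, while Nrg1 in Rh2-20 mg/kg (-2.07 to 0.29) was not. Nor was Erbb4 in Rh2-30 mg/kg + Dox against Rh2-30 mg/kg (-2.036 to 0.319). The interval of Btc in Rh2-20 mg/kg + Dox against Rh2-20 mg/kg also included 0 (-2.168 to 0.415).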
